A study of Mus musculus with 9 samples.

Results

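The genes of the neutrophil granule proteins were followed in spleen RNA of female balb/c mice, some of which had Graves' disease (GD). They were the 10 genes Mpo, Elane, Prtn3, Ctsg, Camp, Ngp, Ltf, Lcn2, S100a8 and S100a9, taken as every non-control probe of the arrays whose transcript accession maps to one of these symbols. All 10 were found, on 11 of 39429 probes (2 for Camp, 1 for each of the others), among 32451 genes or accessions in all. Every one of the 11 probes was well above background on all 9 arrays, and all 10 genes entered the tests. The 9 samples fell into 3 groups of 3. The low Se non-GD group had no Graves' disease and a low dietary supply of selenium, the low Se GD group had the disease and the low supply, and the normal Se GD group had the disease and a normal supply. In Graves' disease autoantibodies switch on the receptor for thyrotropin, and the title of the study asks what part selenium intake has in it. No group joined a normal supply to the absence of disease, so the supply was compared in diseased mice alone. The induction of the disease, the age of the mice and the make-up of the diets are not stated in the labels. Nor do these tell if each sample was another mouse, so p-values speak for the spread among the arrays, which may be technical.

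Neutrophils pack their proteins into granules in the order in which they make them. Promyelocytes fill the azurophil granules first, with myeloperoxidase and the serine proteases neutrophil elastase, proteinase 3 and cathepsin G. Myelocytes and later stages fill the specific and gelatinase granules, with lactoferrin, cathelicidin, neutrophilic granule protein and lipocalin 2, and the S100A8 and S100A9 proteins collect in the cytosol. The transcripts of the azurophil proteins are largely gone from the mature cell, so in tissue they mark precursors more than circulating neutrophils. The spleen of the mouse holds mature neutrophils in its red pulp and also makes granulocytes and red cells.

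Signals are given as log2 of the processed intensity minus the 75th percentile of the array, so that 1 unit is a doubling. Of the non-control spots, 72.6% to 82.6% cleared background on 8 arrays and 58.4% did on normal Se GD replicate 3. Slides, read here from shared scan times, held the 3 low Se non-GD arrays with low Se GD replicate 1 (slide 1), replicates 2 and 3 of low Se GD beside replicates 1 and 2 of normal Se GD (slide 2), and normal Se GD replicate 3 alone (slide 3). Low Se non-GD replicate 3 fell between its fellow arrays for 78.3% of 18538 genes and for 9 of the 10 members, and low Se GD replicate 2 did so for 69.0% of genes and 9 members. Whether these arrays, called in-between here, are independent samples was not tested, and results are also given without both. Normal Se GD replicate 1 did so for 55.0% of genes and all 10 members, and was left out in turn like every array. An E1A spike-in control read 4.72 to 5.84 in the low Se non-GD arrays, 1.0 to 2.51 in low Se GD and 0.82 to 2.36 in the normal supply group. The ribosomal transcript Rn28s1 read 0.45 to 0.83, 3.0 to 5.59, and 4.93 to 5.99 in the same groups.

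In both disease groups, 2 of the 4 azurophil genes stood higher than in low Se non-GD, and the specific granule gene Camp stood lower. Normal Se GD differs from low Se non-GD in disease, selenium supply and slide together, and these cannot be told apart. Elane was 1.81-fold higher in low Se GD and 1.85-fold higher in normal Se GD, and Prtn3 was 2.0-fold and 2.58-fold higher. Ctsg was 2.32-fold and Ngp 1.68-fold higher in normal Se GD, where both passed the test, and neither passed in low Se GD. Mpo, Ltf, Lcn2, S100a8 and S100a9 passed the test in no comparison, and no member passed between the normal and the low supply. In bulk RNA, a change in the number of cells of a type and a change in the RNA per cell cannot be told apart.

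**Figure D1:**
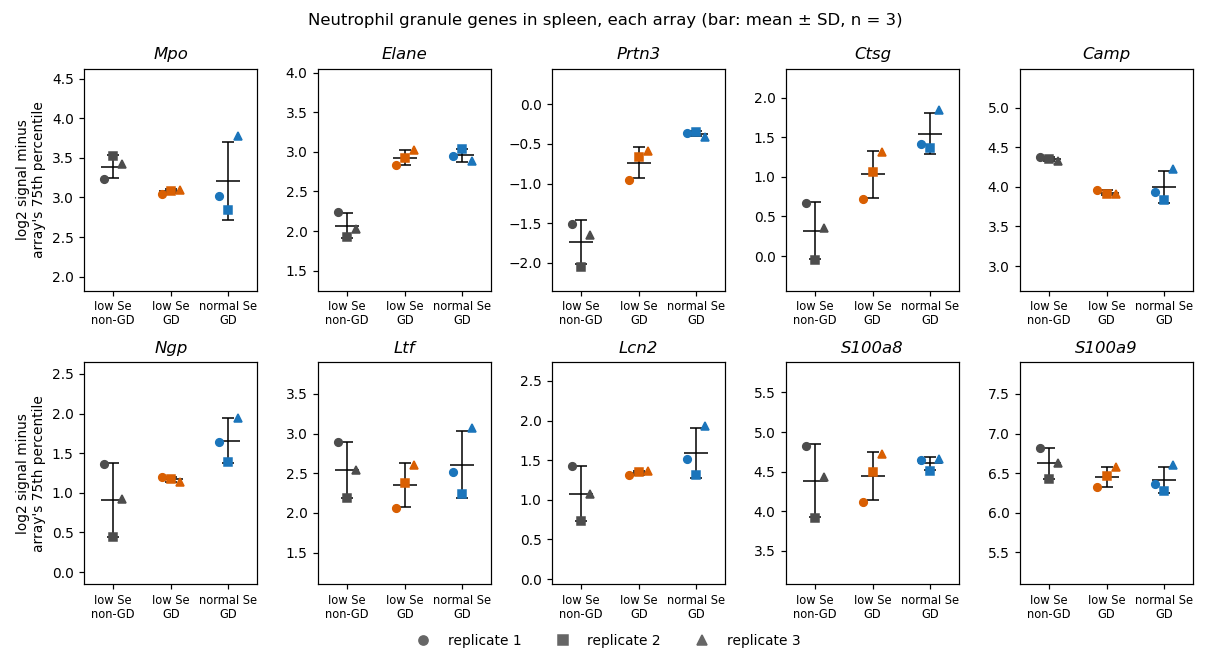
Log2 signal of each of the 10 genes minus the array's 75th percentile, for the 3 arrays of each group (points; the shape gives the replicate number), with the group mean and SD (bar, n = 3); every panel spans the same range. Elane and Prtn3 lie higher in both disease groups than in low Se non-GD, by 0.86 to 1.37, Camp lies lower by 0.36 to 0.43, and the S100a8 and S100a9 groups overlap.

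Elane encodes neutrophil elastase, which cleaves elastin, bacterial outer membrane proteins and clotting and signalling proteins. Its signal was 2.24, 1.93 and 2.03 in low Se non-GD replicates 1 to 3, 2.84, 2.92 and 3.02 in low Se GD, and 2.95, 3.04 and 2.88 in normal Se GD. The lowest diseased array lay 0.60 above the highest non-diseased one, and the disease groups overlapped each other almost fully. The difference was 0.86 (SE 0.11, 95% interval 0.60 to 1.12, adjusted p = 0.0023, limma) for low Se GD and 0.89 (SE 0.11, 95% interval 0.63 to 1.15, adjusted p = 0.00147, limma) for normal Se GD. With slide as a block these were 0.78 (adjusted p = 0.0167) and 0.80 (adjusted p = 0.0385, limma). Here and for the genes below, a slide block sets both disease groups against low Se non-GD only through low Se GD replicate 1. Within slide 1 the difference for low Se GD was 0.78, on that same single array, and was not past the threshold. Without both in-between arrays it was 0.85 (adjusted p = 0.0734, limma).

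Prtn3 encodes proteinase 3, a protease close to elastase that is the target of the antibodies of granulomatosis with polyangiitis. It read -1.51, -2.05 and -1.65 in low Se non-GD, -0.96, -0.67 and -0.59 in low Se GD, and -0.36, -0.35 and -0.41 in normal Se GD. The 3 groups did not overlap and stood in that order. Prtn3 was higher than in low Se non-GD by 1.0 (SE 0.16, adjusted p = 0.00438, limma) in low Se GD and by 1.37 (SE 0.16, adjusted p = 0.00121, limma) in normal Se GD. Under the slide block the differences were 0.78 (adjusted p = 0.0410) and 1.06 (adjusted p = 0.0509), so the second lost its call. The first lost it within slide 1 (0.78, adjusted p = 0.155) and without both in-between arrays (1.01, adjusted p = 0.0855).

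Ctsg encodes cathepsin G, a chymotrypsin-like protease of the same granule. Its signal was 0.67, -0.05 and 0.35 in low Se non-GD, 0.72, 1.06 and 1.31 in low Se GD, and 1.42, 1.37 and 1.84 in normal Se GD. The groups were again ordered without overlap, but low Se non-GD replicate 1 came within 0.04 of the lowest low Se GD array. The difference of 0.70 (SE 0.23, adjusted p = 0.0621, limma) between low Se GD and low Se non-GD missed the threshold, and that of 1.22 (SE 0.23, adjusted p = 0.00635, limma) for normal Se GD passed it. The latter was 0.60 (adjusted p = 0.271) with slide as a block and 1.23 (adjusted p = 0.0565) without both in-between arrays.

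Mpo encodes myeloperoxidase, which makes hypochlorous acid from hydrogen peroxide and chloride. It read 3.23, 3.52 and 3.42 in low Se non-GD, 3.05, 3.08 and 3.10 in low Se GD, and 3.02, 2.84 and 3.77 in normal Se GD. All low Se GD arrays lay below all low Se non-GD arrays, and normal Se GD replicate 3 was the highest of the 9. The difference was -0.32 (SE 0.23, 95% interval -0.84 to 0.21, adjusted p = 0.352, limma) in low Se GD and -0.18 (95% interval -0.70 to 0.35, adjusted p = 0.588) in normal Se GD. With normal Se GD replicate 3 left out of the fit, which sets the shared spread, Mpo passed in both comparisons, with adjusted p = 0.0391 and 0.0145 and differences of -0.32 and -0.46.

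The azurophil genes moved unequally on the same arrays. Differences between genes of 1 array show this free of any factor common to all spots of an array. Scaling that varies with the level of the signal does not cancel in them. The size of such a difference depends on the probes, only its shift between groups is read, and no test was run on it. Elane minus Mpo was -0.98, -1.60 and -1.39 in low Se non-GD, -0.20, -0.16 and -0.08 in low Se GD, and -0.08, 0.21 and -0.89 in normal Se GD, which left the disease groups above the other by 1.17 and 1.07 on average. Prtn3 minus Mpo shifted by 1.32 and 1.55, and Ctsg minus Mpo by 1.02 and 1.39. Against the cytosolic gene S100a9, Elane shifted by 1.03 and 1.1, with SDs of 0.05, 0.05 and 0.24 within the groups in order. The size of that shift depends on the scaling, since S100a9 itself differed by -0.18 and -0.21 here and by 0.2 and 0.31 in the authors' deposited table.

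**Figure D2:**
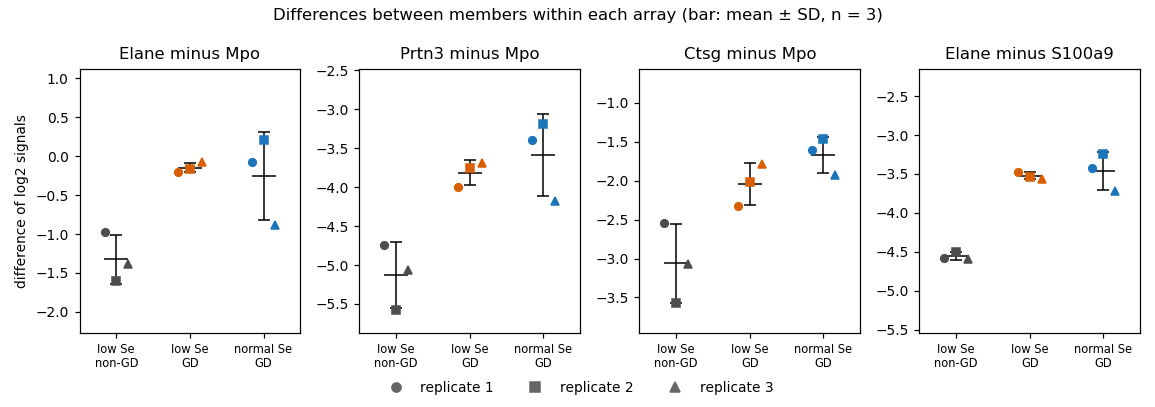
Differences between the log2 signals of pairs of genes on the same array, for the 3 arrays of each group (points; the shape gives the replicate number), with mean and SD (bar, n = 3); every panel spans the same range. Elane minus Mpo rises from -1.32 in low Se non-GD to -0.15 in low Se GD and -0.25 with the normal supply, where replicate 3 lies at -0.89.

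The promoters of the azurophil genes are shown because these 4 genes share a granule and a stage of maturation. Their shifts between the groups differed here, which was not tested. Each line is the 250 bases before the transcription start from RefSeq on GRCm38.p6, 5′ to 3′ on the strand of the gene. Capitals mark matches on either strand to GAGGAAGT, a site form of the myeloid factor PU.1, to TTGCNNAA, of the C/EBP factors, or to CAACNG, of MYB. Elane is at chr10:79886062-79886311 (plus strand), Prtn3 at chr10:79879417-79879666 (plus strand), Ctsg at chr14:56102575-56102824 (minus strand) and Mpo at chr11:87793534-87793783 (plus strand).
Elane: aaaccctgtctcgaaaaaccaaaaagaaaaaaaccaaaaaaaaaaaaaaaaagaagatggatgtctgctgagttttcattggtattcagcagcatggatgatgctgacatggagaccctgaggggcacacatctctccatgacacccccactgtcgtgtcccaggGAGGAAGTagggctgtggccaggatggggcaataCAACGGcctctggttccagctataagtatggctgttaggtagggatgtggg
Prtn3: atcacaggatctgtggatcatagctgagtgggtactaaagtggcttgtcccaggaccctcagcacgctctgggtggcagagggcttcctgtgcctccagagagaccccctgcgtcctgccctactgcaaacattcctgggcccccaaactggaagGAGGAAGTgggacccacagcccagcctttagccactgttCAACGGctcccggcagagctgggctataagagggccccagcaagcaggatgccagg
Ctsg: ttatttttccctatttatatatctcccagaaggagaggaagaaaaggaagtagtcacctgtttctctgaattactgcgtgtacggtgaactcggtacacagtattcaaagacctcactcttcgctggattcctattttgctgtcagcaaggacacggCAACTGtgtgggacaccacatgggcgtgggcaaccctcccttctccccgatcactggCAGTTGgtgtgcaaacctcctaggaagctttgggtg
Mpo: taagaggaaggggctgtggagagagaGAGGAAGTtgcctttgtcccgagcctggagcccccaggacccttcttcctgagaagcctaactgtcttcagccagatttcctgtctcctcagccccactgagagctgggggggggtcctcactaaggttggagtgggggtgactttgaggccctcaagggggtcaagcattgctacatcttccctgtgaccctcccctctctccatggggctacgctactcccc

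Elane and Prtn3 carried the same pair of matches in the same order. GAGGAAGT lay 85 to 78 bases before the start in Elane and 95 to 88 bases before it in Prtn3, and CAACGG followed at 51 to 46 and 56 to 51 bases. Mpo had GAGGAAGT farther out, at 224 to 217 bases, and no CAACNG. Ctsg had 2 matches to CAACNG and none to GAGGAAGT. Of all 32851 promoter windows of this length, 2.44% held GAGGAAGT, 9.56% TTGCNNAA and 29.33% CAACNG. Among the 10 members 4 held the first, 4 the second and 5 the last. Another 2 motifs were searched without capitals: TGTGGT, of RUNX factors, was in 2 members and 14.05% of windows, and TATAAA in 2 members and 12.37%. No motif overlapped another in the 4 windows shown. A match is a run of letters and not a measured site.

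Prtn3 and Elane are next to each other on chromosome 10, with 0 coding genes between them, and their profiles were the closest of any protease pair (Pearson r = 0.97 over the 9 arrays). The coding genes around the pair were mixed. Plppr3, on the far side of Prtn3, differed from low Se non-GD by -0.21 in low Se GD and 0.29 with the normal supply (adjusted p = 0.491 and 0.313, limma). Cfd, the adipsin gene on the far side of Elane, spread from -7.57 to 4.24 over the arrays and passed in no comparison. Med16, beyond it, read -0.56 and -0.49 (adjusted p = 0.0806 and 0.0993, limma). Ptbp1, beyond Plppr3, rose by 0.30 and 0.28 (adjusted p = 0.0385 and 0.0390, limma) and R3hdm4, beyond Med16, by 0.60 and 1.25 (adjusted p = 0.0453 and 0.00217, limma).

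Camp encodes the cathelicidin precursor, whose cleaved peptide kills bacteria by breaking their membranes. Its brighter probe read 4.38, 4.35 and 4.33 in low Se non-GD, 3.96, 3.91 and 3.91 in low Se GD, and 3.93, 3.83 and 4.22 in normal Se GD. Both disease groups lay below all low Se non-GD arrays, by a gap of 0.37 in low Se GD and 0.11 with the normal supply. Camp fell by 0.43 (SE 0.11, adjusted p = 0.0294, limma) in low Se GD, or 1.34-fold, and by 0.36 (SE 0.11, adjusted p = 0.0456, limma), or 1.28-fold, in normal Se GD. The second Camp probe read 3.51, 3.57 and 3.56, then 3.10, 3.05 and 3.04, then 3.05, 2.94 and 3.54 in the same order. Fitted on its own over 31868 probes, it differed by -0.48 (adjusted p = 0.0540, limma) and -0.37 (adjusted p = 0.103, limma). Both probes thus had the same sign, but these calls were narrow: quantile normalization gave -0.30 and -0.10, the authors' deposited table -0.29 and -0.07, and leaving out both in-between arrays -0.43 (adjusted p = 0.253) and -0.37 (adjusted p = 0.203), none of them past the threshold. Within slide 1 the difference was -0.39 and not past the threshold. The slide block kept both calls (-0.39 and -0.42, adjusted p = 0.0207 and 0.0461, limma), but only through low Se GD replicate 1.

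Ngp encodes neutrophilic granule protein, a cystatin-related protein of the specific granules. It read 1.37, 0.44 and 0.92 in low Se non-GD, 1.2, 1.17 and 1.14 in low Se GD, and 1.64, 1.39 and 1.95 in normal Se GD. The low Se GD arrays lay inside the range of low Se non-GD, and the normal Se GD arrays lay above it by only 0.02. Ngp was higher by 0.26 (SE 0.24, adjusted p = 0.471, limma) in low Se GD, which did not pass, and by 0.75 (SE 0.24, adjusted p = 0.0449, limma) in normal Se GD, which did. The latter call held in 10 of 22 alternatives, over which the difference ran from 0.51 to 0.98 and the adjusted p from 0.0143 to 0.337. It was lost with slide as a block (0.65, adjusted p = 0.337) and without both in-between arrays (0.76, adjusted p = 0.175).

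Camp and Ngp are shown together because both belong to the specific granule and lie on chromosome 9 with 8 coding genes between them. Yet their signs were opposite, though Ngp did not pass in low Se GD and the calls of Camp were narrow. Ngp minus Camp was -3.0, -3.92 and -3.41 in low Se non-GD, -2.76, -2.74 and -2.77 in low Se GD, and -2.29, -2.44 and -2.27 in normal Se GD, a shift of 0.69 and 1.11. The Camp window, chr9:109849457-109849706 (minus strand, GRCm38.p6), held none of the 5 motifs. The Ngp window, chr9:110419558-110419807 (plus strand), held 2 matches to TTGCNNAA, 1 of them 11 to 4 bases before the start, and 1 to CAACNG.
Camp: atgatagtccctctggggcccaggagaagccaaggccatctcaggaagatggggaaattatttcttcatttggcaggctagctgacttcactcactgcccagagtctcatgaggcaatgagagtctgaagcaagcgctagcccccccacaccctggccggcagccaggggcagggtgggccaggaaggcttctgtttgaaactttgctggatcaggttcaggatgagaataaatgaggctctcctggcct
Ngp: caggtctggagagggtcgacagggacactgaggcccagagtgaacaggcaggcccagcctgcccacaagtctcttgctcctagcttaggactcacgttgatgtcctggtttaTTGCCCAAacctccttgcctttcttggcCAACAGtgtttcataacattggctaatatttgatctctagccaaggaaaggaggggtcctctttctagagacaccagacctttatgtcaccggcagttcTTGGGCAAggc

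Ltf encodes lactoferrin, which binds iron and withholds it from microbes. It read 2.90, 2.19 and 2.54 in low Se non-GD, 2.06, 2.38 and 2.61 in low Se GD, and 2.51, 2.24 and 3.07 in normal Se GD. The 3 groups overlapped. The differences from low Se non-GD were -0.19 (95% interval -0.81 to 0.42, adjusted p = 0.642, limma) and 0.06 (95% interval -0.55 to 0.68, adjusted p = 0.883, limma).

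Lcn2 encodes lipocalin 2, which captures the iron carriers of bacteria. It read 1.43, 0.73 and 1.07 in low Se non-GD, 1.31, 1.35 and 1.36 in low Se GD, and 1.52, 1.31 and 1.93 in normal Se GD. The groups overlapped, although normal Se GD held the highest values. The differences were 0.26 (adjusted p = 0.403, limma) and 0.51 (SE 0.21, 95% interval 0.02 to 0.99, adjusted p = 0.103, limma). Its window held TTGCNNAA, as did those of Ltf, Ngp and S100a9.

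S100a8 and S100a9 encode the subunits of calprotectin, which binds zinc, manganese and calcium and signals through TLR4 when released. S100a8 read 4.82, 3.91 and 4.43 in low Se non-GD, 4.12, 4.50 and 4.72 in low Se GD, and 4.65, 4.51 and 4.66 in normal Se GD. S100a9 read 6.82, 6.43 and 6.63, then 6.32, 6.46 and 6.58, then 6.37, 6.28 and 6.60. For both genes the spread inside a group was as wide as any distance between groups. S100a8 differed by 0.06 (95% interval -0.50 to 0.62, adjusted p = 0.887, limma) in low Se GD and 0.22 (95% interval -0.34 to 0.78, adjusted p = 0.533) in normal Se GD. S100a9 differed by -0.18 (95% interval -0.50 to 0.15, adjusted p = 0.405, limma) and -0.21 (95% interval -0.54 to 0.12, adjusted p = 0.300). The sign of S100a9 turned under quantile normalization (0.18 and 0.27) and in the authors' deposited table (0.20 and 0.31), so no direction is given for it.

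**Figure D3:**
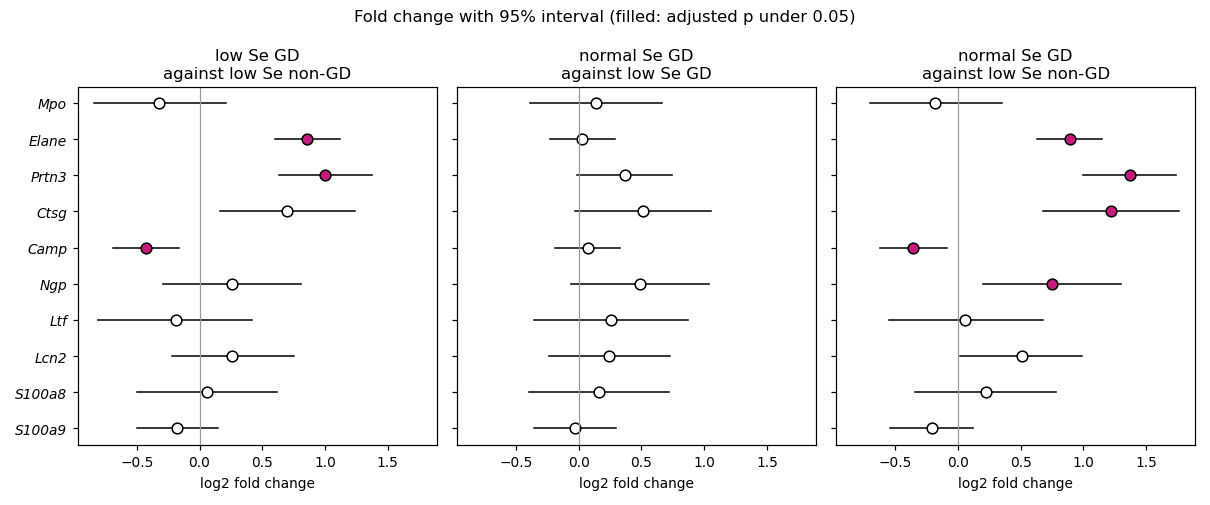
Log2 fold change of each gene with its 95% interval (points and lines, limma, 3 arrays a group) in the 3 comparisons; filled points have an adjusted p under 0.05. Elane, Prtn3 and Camp are filled in the left panel, no gene is filled between the selenium supplies, and Elane, Prtn3, Ctsg, Camp and Ngp are filled in the right panel.

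Counted over the members, low Se GD versus low Se non-GD gave 2 of 10 higher and 1 lower, where 12.8% of the 26325 genes tested were called higher and 12.2% lower. The groups did not overlap for 5 members, against 53% of genes. Normal Se GD against low Se non-GD gave 4 higher and 1 lower, against 18.9% and 13.4% of genes, and 5 members without overlap, against 49.1%. The members' median difference was 0.16 in the former (0.08 over all genes) and 0.36 in the latter (0.06 over all genes). Apart from the 4 members called higher in the latter, these shares lie near those of the array as a whole. The comparisons use the same low Se non-GD arrays and are not independent of each other. Without both in-between arrays, 0 members were called in the former and 2 (Elane and Prtn3) in the latter. Without normal Se GD replicate 3 the former count rose from 3 to 5, with Mpo and Ctsg added. The latter count went from 5 to 3 without any 1 of low Se non-GD replicates 2 and 3, the 3 low Se GD arrays or normal Se GD replicate 1, and to 2 with slide as a block.

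The selenium comparison, normal Se GD against low Se GD, called 0 of 10 members, where 0.976% of genes (257) were called higher and 0.292% (77) lower by limma. These array-wide counts depended on the scaling, at 32 and 14 with quantile normalization, 2 and 1 in the authors' deposited table and 0 and 0 with either median scaling or normexp. At an unadjusted p under 0.05 the count was also 0, against 19.4% of genes, and no other tool was run. Of the 10 differences 9 were positive, with a median of 0.20 against 0.00 over all genes. The groups did not overlap for 3 members, Prtn3, Ctsg and Ngp, against 29.4% of genes. Their differences were 0.37 (95% interval -0.01 to 0.74, adjusted p = 0.263), 0.51 (95% interval -0.03 to 1.05, adjusted p = 0.277) and 0.49 (95% interval -0.06 to 1.04, adjusted p = 0.310, limma), all 3 higher at the normal supply. Within slide 2, which held 2 arrays of each group, they were 0.27, 0.21 and 0.36. For Elane the difference was 0.03 with a 95% interval of -0.23 to 0.29 on the log2 scale, and its sign turned under median scaling (-0.03). Mpo and Camp, at 0.14 and 0.07, turned to -0.16 and -0.03 within slide 2.

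**Figure D4:**
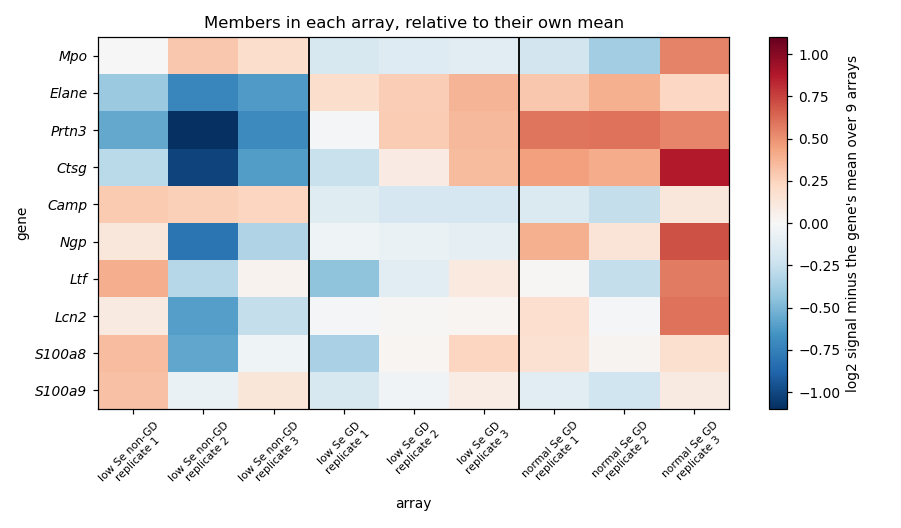
Log2 signal of each gene on each of the 9 arrays minus its own mean over them (colour; black lines part the 3 groups). Elane, Prtn3 and Ctsg are low on the 3 low Se non-GD arrays, Camp is high there, and normal Se GD replicate 3 is the highest of its group for 8 of the 10 genes.

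Inside the groups the members tended to be high or low together, across their granule classes. The middle arrays for most members were low Se non-GD replicate 3, low Se GD replicate 2 and normal Se GD replicate 1. These were also in the middle for 78.3%, 69% and 55% of 18538 genes. A shared order of the arrays is thus not particular to the members. Low Se non-GD replicate 1 was the highest of its group for 9 members (all but Mpo) and replicate 2 the lowest for 8. Low Se GD replicate 1 was lowest and replicate 3 highest for the same 8 members, Camp and Ngp being the exceptions. Normal Se GD replicate 3 was highest for 8 members and lowest for Elane and Prtn3. The summed linear signal of 8 proliferation genes, relative to the 75th percentile, moved along in the low supply groups, at 62.6, 22.9 and 41.6 in low Se non-GD and 43.3, 55.6 and 64.0 in low Se GD, and lay at 28.1, 27.3 and 30.7 in normal Se GD. That of 7 erythroid precursor genes was 125, 72.3 and 98.6, then 106, 116 and 135, then 75.4, 75.6 and 95.1. The part of these in the members' order was not tested.

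Over the 9 arrays, which share the group differences and slides, Lcn2, Ltf and Ngp followed the mean of the other 9 members most closely (Pearson r = 0.91, 0.84 and 0.83). Mpo (0.11) and Camp (-0.17) followed it least. The closest pairs were Elane with Prtn3 and Ngp with Lcn2 (both 0.97) and Prtn3 with Ctsg (0.94). Mpo was instead nearest to Camp (0.77), and Elane and Camp ran opposite (-0.89). After each group's mean was removed, Mpo and Camp correlated at 0.91, Elane and Camp at only -0.35, and Ctsg and S100a9 at 0.99. The value for Mpo and Camp rested on normal Se GD, where replicate 3 was highest for both (3.77 and 4.22). In each other group replicate 1 was the highest for Camp and the lowest for Mpo. S100a8 and S100a9, which are neighbours on chromosome 3 with 0 coding genes between them, correlated at 0.53 over the arrays and at 0.87 after group means were removed.

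Among 13353 other named genes above background on every array, those nearest to the mean profile of the 10 members over the 9 arrays were Zdhhc24 (Pearson r = 0.975), Emc3, Gp6, Slc6a3, Zw10, Clp1, 2210016F16Rik, Tpi1, Gipc1 and Qpctl (0.953). Nearest to the mean of Mpo, Elane, Prtn3 and Ctsg were Ifi47 (0.998), Plpp2, Ssr1, Gzmb and Sde2 (0.992). Nearest to S100a8 and S100a9 were Fdft1 (0.984), Fer, Ahctf1, Rasl2-9 and Hnrnpab (0.958). With so many candidates over 9 arrays, values of this size are a description only.

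The shares of all genes called, 12.8% higher and 12.2% lower in low Se GD and 18.9% and 13.4% in normal Se GD, and the medians of all genes, 0.08 and 0.06, are the background for the counts in the lists that follow. The companions of the azurophil genes were mixed, with counts in low Se GD near that background. Of 11 tested, 2 rose and 1 fell in low Se GD, with a median of 0.12, and 5 rose and 1 fell in normal Se GD, with a median of 0.34. Ctsc, the cathepsin C that activates elastase, proteinase 3 and cathepsin G by trimming them, rose by 0.36 (adjusted p = 0.0265) and 0.61 (adjusted p = 0.00272, limma). Srgn, the proteoglycan serglycin that holds the proteases in the granule, rose by 0.49 (adjusted p = 0.0261) and Ms4a3, a marker of granulocyte and monocyte progenitors, by 0.57 (adjusted p = 0.0293) in normal Se GD, and passed in no other comparison. Rnase6, a secreted ribonuclease, rose by 0.84 there as well (adjusted p = 0.00286). Plac8 rose by 0.87 and 1.45 on its brighter probe, but its other probe read -1.5 and -0.72, so it has no settled direction. Cst7, the cystatin F that inhibits cathepsin C, differed by -2.46 (adjusted p = 0.00267) and -2.37 (adjusted p = 0.00217, limma).

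Of the inhibitors of the granule proteases 1 of 5 tested passed. Slpi, the secretory leukocyte protease inhibitor that blocks elastase and cathepsin G, rose by 1.12 (adjusted p = 0.0435) in low Se GD and 1.53 (adjusted p = 0.0109, limma) in normal Se GD. Both enzymes' genes and this inhibitor's gene were thus higher in normal Se GD.

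Of 20 companions of the specific and gelatinase granules and the cytosol, 2 rose and 2 fell in low Se GD (median 0.12), no more than the share of all genes, and 5 rose and 1 fell in normal Se GD (median 0.24). Lrg1, a secreted glycoprotein stored in neutrophil granules, rose by 1.38 and 1.12 (adjusted p = 0.00382 and 0.00617, limma). Retnlg, a resistin-like protein of neutrophils, rose by 0.59 in low Se GD (adjusted p = 0.0422). Mmp9, the gelatinase itself, rose by 1.01 (adjusted p = 0.0395), Cd177, a surface protein that presents proteinase 3 on human neutrophils, by 1.12 (adjusted p = 0.0111) and Cybb, the catalytic subunit of the phagocyte oxidase, by 0.69 (adjusted p = 0.00475) in normal Se GD. Mmp25, a membrane-bound metalloprotease, was well above background on 2 of 3 arrays of each disease group and on 0 of low Se non-GD. In normal Se GD it was at least 1.98-fold higher (adjusted p = 0.0050, limma), the bound being set against the lowest signal well above background. Itgb2l fell by 0.62 in low Se GD (adjusted p = 0.0350), and Ceacam10 differed by -2.82 and -2.71 (adjusted p = 0.000461 and 0.000413, limma).

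Of 9 transcription factors of granulopoiesis, 3 rose in low Se GD, and 4 rose and 1 fell in normal Se GD, with medians of 0.17 and 0.33. Cebpa, which starts the granulocyte programme, rose by 0.75 and 0.95 (adjusted p = 0.0166 and 0.00509, limma). Myb, which is active in proliferating precursors and on the Elane promoter, rose by 0.83 and 0.53 (adjusted p = 0.00389 and 0.0164, limma). Cebpd rose by 1.15 and 0.72, and Irf8, which favours monocytes over granulocytes, by 0.33 in normal Se GD (adjusted p = 0.0194). Runx1 fell by 0.53 in normal Se GD on its brighter probe while its other probe rose by 1.38, so it too has no settled direction.

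Among the ligands that raise or attract neutrophils, 2 of 8 tested rose and 1 fell in low Se GD, and 3 rose and 1 fell in normal Se GD, with medians of 0.65 and 0.60. These medians fall between Il3 and Il6 in low Se GD and between Cxcl5 and Il17a in normal Se GD. Il6 and Il17a were well above background on 0 arrays of low Se non-GD, so the medians are not read as a rise of the list. Cxcl12, which holds neutrophils in the marrow, rose by 1.26 and 1.09 (adjusted p = 0.0122 and 0.0166, limma), and Ppbp, a platelet chemokine, by 1.19 and 1.38 (adjusted p = 0.00957 and 0.00405, limma). Cxcl1, a main attractant of neutrophils, differed by -3.30 and -3.53 (adjusted p = 0.00667 and 0.00379, limma). Il6 was called higher in normal Se GD, but was not well above background in low Se non-GD and has no fold here. Csf2 and Cxcl3 were not well above background on any array.

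Of 13 receptors and surface proteins of neutrophils tested, 2 rose and 3 fell in low Se GD, and 5 rose and 1 fell in normal Se GD, with medians of 0.32 and 0.47. Fpr1, the receptor for bacterial formyl peptides, rose by 1.67 and 1.93 (adjusted p = 0.0239 and 0.0107, limma) and Cd14, the co-receptor for endotoxin, by 1.01 and 1.08. Fpr2 rose by 1.66 and the chemokine receptor Cxcr2 by 0.88 in normal Se GD. Trem3 differed by -3.16 and -3.12. Itgb2 fell by 0.43 in low Se GD, and Itgam by 1.29 on its brightest probe, with -0.28 and 0.01 on its other probes, neither of which passed. C5ar1 was not well above background on any array.

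The receptors that bind granule proteins once released rose in part. Of 7 tested, 3 rose in low Se GD and 5 with the normal supply, 0 fell, and the medians were 0.82 and 0.97. Slc22a17, the lipocalin 2 receptor, rose by 0.52 and 0.77 (adjusted p = 0.0226 and 0.00373, limma), Lrp1, a lactoferrin receptor, by 0.82 and 0.97, and Cd36, which binds S100A8 and S100A9, by 1.59 and 1.67. Tlr4, through which the same proteins signal, rose by 0.74 (adjusted p = 0.0108), and Fpr2, the cathelicidin receptor counted above as well, by 1.66 in normal Se GD. Between the selenium supplies 0 genes of these 7 lists passed the adjusted threshold of limma. The nearest were Cxcr2 (1.21, adjusted p = 0.0504), Mmp25 (1.23, adjusted p = 0.0548) and Plac8 (0.58, adjusted p = 0.0554), and all 3 passed when each probe was fitted on its own (adjusted p = 0.0426, 0.0462 and 0.0466, limma). At an unadjusted p under 0.05, which 19.4% of all genes met, 7 of the 11 azurophil companions were higher at the normal supply. They were Ctsc, Srgn, Lyz2, Cd63, Igsf6, Plac8 and Rnase6, and not Ms4a3, Fcnb, Prss57 or Cst7. The list's median was 0.43, and its summed signal was 35.8 to 36.9 in low Se GD and 46.8 to 56.1 in normal Se GD. Srgn, Plac8 and Cd63 were its brightest genes in both groups. At the same threshold the count was 5 of 20 for the specific granule companions, 4 of them higher. It was 3 of 9 for the transcription factors and 2 each for the receptors of neutrophils and the ligands. For the inhibitors it was 1 and for the receptors of granule proteins 0.

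**Figure D5:**
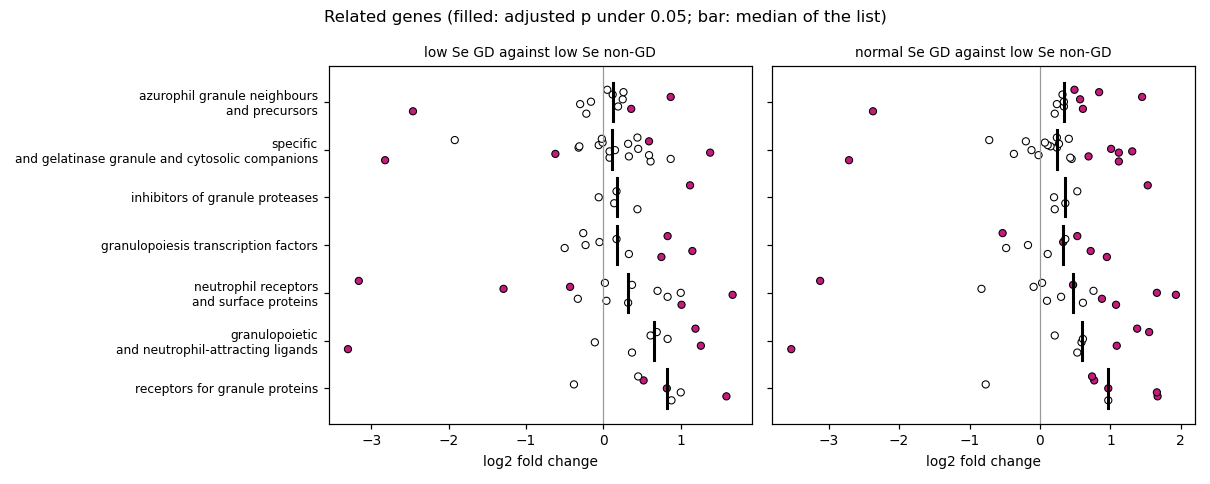
Log2 fold changes of the genes of 7 related lists relative to the non-diseased group, for low Se GD (left) and normal Se GD (right); each point is a gene (filled: adjusted p under 0.05) and each bar the median of its list. The medians lie between 0.12 and 0.82 on the left and between 0.24 and 0.97 on the right, and single genes such as Cst7, Ceacam10, Trem3 and Cxcl1 lie below -2.

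The genes that fell most in these lists, Cst7, Ceacam10, Trem3 and Cxcl1, did so in the groups in which the E1A control was lower too, and the part of that in their values was not tested. For Ceacam10 and Cxcl1, 2 of the 3 normal Se GD arrays were well above background.

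Markers of other spleen cells moved beside the proteases. Of 6 monocyte and macrophage markers 5 rose in each disease group, among them Mrc1 by 2.0 and 1.72. Csf1r rose by 0.70 and 0.82 on its brightest probe, and its other probes read 0.46 and 1.03, and 0.20 and 0.04. Of the latter values only the 1.03 passed (adjusted p = 0.00199, limma). The summed signal of the 6 was 27.4 to 33.2 in low Se non-GD, 51.2 to 52.8 in low Se GD and 49.2 to 57.9 in normal Se GD. Cx3cr1 differed by -0.55 in low Se GD on its brighter probe and by 0.16 (adjusted p = 0.380, limma) on the other, which rose by 1.05 in normal Se GD, so it has no settled direction. The summed signal of 7 mature neutrophil markers, S100a8 and S100a9 among them, was 158 to 207, 167 to 179 and 172 to 180 in the same order, and 1 and 2 of the 7 rose. S100a9, Csf3r and S100a8 were by far its brightest genes in each group, so this sum is no measure separate from the members. B cell markers summed to 91.5 to 106, 74.4 to 77.5 and 87.0 to 98.7, and T cell markers to 20.8 to 33.5, 25.1 to 26.2 and 24.4 to 26.0. In the erythroid, proliferation and T cell lists 0 genes were called in any comparison by limma on the brightest probes. Probes that were not the brightest passed for Tfrc (1.39 in low Se GD on 1 probe, -0.68 in normal Se GD and -0.80 between the supplies on another) and Ccnb1 (-0.90 in normal Se GD). At an unadjusted p under 0.05, in the order of the comparisons above with the selenium comparison last, the counts were 1, 1 and 3 of 7 for the erythroid list, 3, 0 and 6 of 8 for proliferation and 0 each for T cells. Of 5 epithelial markers tested Cdh1 fell in low Se GD, a second probe of Cldn4 differed by -2.61 and -2.60 where its brightest did not pass, their sum was at most 0.502, and Krt8 was not well above background. The part of the monocyte and macrophage signal in the rise of Elane, Prtn3 and Ctsg was not tested.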

How the data were processed

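Total RNA of spleen had been hybridised to Agilent 1-colour arrays, per the labels' protocols. The deposited files hold a linear intensity for each spot, background-subtracted and detrended by Agilent's Feature Extraction without scaling between arrays, per the file headers. The authors' deposited table of log2 values was an alternative only. Its making is not stated in the labels, and its columns have a median of 6.43. By rank correlation 6 of 9 columns fit their own array best, and those of low Se non-GD a different array of that group, so its replicate numbers are uncertain.

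From the processed intensity, log2 minus the array's 75th percentile over 43020 non-control spots was taken. Outlier-marked spots were dropped, spots of a probe averaged, and the brightest probe kept per gene. Genes well above background on fewer than 3 of 9 arrays (6078) or lacking a value (48) were left out, which left 26325. No spot was saturated (0 on every array), and the number of arrays limits the precision. All 9 arrays entered 1 fit in limma 3.58.1 under R 4.3.3 (2-sided, 6 residual and 1.81 prior degrees of freedom), with Benjamini-Hochberg adjustment over all genes and a threshold of 0.05. The script was tested on simulated data.

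Symbols came from RefSeq accessions on GRCm38.p6 (27234 of 39429 probes). The files name mm9, so only promoter windows of RefSeq carry coordinates, on their own build. The members and gene lists were chosen with earlier results of these data known. Named were all members, list genes past the threshold or used as reference points, the 10 genes most like the members and the 5 most like the proteases and the S100 pair. Alternatives were 3 other scalings or background corrections, the authors' table, 2 other filters, the mean over probes, outlier spots kept, 2 groups per fit, slide and replicate blocks, comparison within slides, a trended robust fit and leaving out each array. Leaving out both in-between arrays and fitting each probe on its own were chosen after the data were seen. Normexp (offset 50) used the median signal and background, since the mean signal planned for it is not among the columns used here. Same-numbered arrays deviated with correlations of -0.21 to 0.10, which gave no sign that the numbers pair samples. Whether they do is not settled by this, and the main fit took the arrays as unpaired.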

Additional observations from a re-analysis of the deposited data

How the results depend on the processing

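Over the single genes, 591 alternative values kept direction and call, 47 kept direction and lost the call, 9 gained a call and 33 changed sign. Of the latter no gene was past the threshold in either setting. Elane was called in 21 of 23 alternatives in low Se GD (0.78 to 0.96) and 22 of 22 in normal Se GD (0.80 to 0.99), and Prtn3 in 21 of 23 (0.74 to 1.12) and 21 of 22 (1.06 to 1.48). Camp was called in 11 of 23 and 6 of 22. For low Se GD versus low Se non-GD, 3 members were called, and 0 within slide 1 and 0 without both in-between arrays, each with fewer arrays. Leaving out each array in turn gave 2 to 5. For normal Se GD versus low Se non-GD, 5 were called, 3 with median scaling, 3 with no filter on dim probes, 3 with only the 2 groups compared, 2 with slide as a block and 2 without both in-between arrays, and leaving out each array gave 3 to 5. No slide held both of these groups, so nothing within a slide could be had. The selenium comparison called 0 in every alternative run. With a replicate block the counts were 2, 0 and 4 for low Se GD versus low Se non-GD, the selenium comparison and normal Se GD versus low Se non-GD, and Camp lost its call (-0.43, adjusted p = 0.0634, and -0.36, adjusted p = 0.0841).

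The median of all genes in low Se GD versus low Se non-GD moved from 0.08 to -0.16 with normexp, with 40.9% of calls higher against 51.2%, and to 0.18 with median scaling. In the selenium comparison it moved from 0.00 to 0.16 with normexp. The sign changed as follows, and the cause was not tested. In low Se GD versus low Se non-GD S100a8 went to -0.27 by the slide block and inside slide 1 and S100a9 to 0.18 with quantile normalization and 0.20 in the authors' table. In the selenium comparison, by the slide block and inside slide 2, Mpo went to -0.16, Camp to -0.03, Ltf to -0.12 and S100a8 to -0.03. There Elane went to -0.03 with median scaling and S100a9 to 0.09 with quantile normalization and 0.11 in the authors' table. In normal Se GD versus low Se non-GD, Mpo went to 0.01 in the authors' table, Ltf to -0.61 and S100a8 to -0.30 with slide as a block, and S100a9 to 0.27 with quantile normalization and 0.31 in the authors' table. Leaving out each array in turn turned the sign of other values, with ranges of -0.18 to 0.28 for S100a8 in low Se GD versus low Se non-GD; of -0.14 to 0.32 for Mpo, -0.01 to 0.08 for Elane, -0.04 to 0.15 for Camp, -0.01 to 0.30 for S100a8 and -0.12 to 0.04 for S100a9 in the selenium comparison; of -0.46 to 0.01 for Mpo, -0.17 to 0.25 for Ltf and -0.02 to 0.44 for S100a8 in normal Se GD versus low Se non-GD.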

Other observations

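Eosinophils store other granule proteins than neutrophils do. Of 8 eosinophil markers tested, 5 rose and 1 fell in low Se GD, and the counts were equal in normal Se GD, with medians of 0.87 and 0.88 against 0.08 and 0.06 over all genes. Prg3, a major basic protein homologue, rose by 1.02 and 1.66 (adjusted p = 0.00407 and 0.000632, limma) and Prg2, the major basic protein, by 0.61 and 0.81 (adjusted p = 0.00885 and 0.00227, limma). The eosinophil ribonucleases Ear1 and Ear2 rose by 1.01 and 1.05 in low Se GD and by 0.94 and 1.06 in normal Se GD. Their signal can come from close copies of these genes, which the array may not tell apart. Ccr3, the eotaxin receptor, rose by 1.42 and 1.36, and Il5ra, the interleukin 5 receptor, fell by 0.73 and 0.77.

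Of 7 mast cell and basophil markers tested, 1 rose and 1 fell in low Se GD and 2 rose in normal Se GD. The basophil protease genes Prss34 and Mcpt8 rose by 0.93 and 0.65 in normal Se GD (adjusted p = 0.0105 and 0.0154, limma). Mcpt8 is next to Ctsg on chromosome 14, and Mcpt4, the next gene along, fell by 1.06 in low Se GD (adjusted p = 0.00515, limma). Cpa3 passed in the selenium comparison, higher by 0.96 at the normal supply (adjusted p = 0.0451, limma), a call that is lost with normexp and with median scaling, under which 0 genes of the array were called there.

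Of 6 progenitor markers, 1 rose and 2 fell in low Se GD, and 2 rose and 2 fell in normal Se GD. Flt3 rose by 0.70 and 1.14 on its brighter probe, with 0.34 and 0.26 on the other, neither past the threshold. Cd34 fell by 1.29 and 1.37 on its brighter probe, with 0.03 and 0.26 on the other. Gata2 fell by 1.57 and 1.56. Beside Mpo on chromosome 11, the lactoperoxidase gene Lpo was higher by 2.28 in normal Se GD (adjusted p = 0.0442, limma), and the eosinophil peroxidase gene Epx read 0.73 and 0.40, neither past the threshold.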
